A study of Mus musculus with 12 samples.

Results

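Glucose uptake and upper glycolysis were followed through 9 genes: Slc2a1 and Slc2a3 for transport, Hk1 and Hk2 for phosphorylation, Gpi1 for isomerisation, Pfkl, Pfkm and Pfkp for the committing step, and Pfkfb3 for its regulation. They were taken from the deposited gene count table by an exact match of the gene symbol, with the entry of the highest total kept had a symbol been repeated. They make up 9 of the 13780 genes in the table. A gene was tested when it reached at least 1 CPM (counts scaled to a common library total) in at least 3 libraries, which left 13767 genes and all 9 members. Levels are given as CPM after TMM correction, which adjusts the totals for differences in library composition.

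Glucose crosses the T cell membrane through facilitative transporters of the SLC2A family, and hexokinases hold it inside the cell as glucose-6-phosphate. Phosphoglucose isomerase turns this into fructose-6-phosphate, and phosphofructokinase adds the phosphate that commits the sugar to glycolysis, a step accelerated by fructose-2,6-bisphosphate. Naive T cells burn little glucose, activation through the antigen receptor and CD28 raises its uptake, and lactate is the product that leaves strongly glycolytic cells.

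RNA was sequenced from mouse CD8+ T cells in 12 libraries, 4 in each of 3 groups. The cells came from spleens of wild-type C57BL/6J mice 8 to 12 weeks old and were isolated by positive selection on magnetic beads. The naive group was frozen straight after purification and came from 4 donors. The activated cells came from 5 donors, of which 3 gave a library to both activated groups. Both activated groups were cultured 72 h on beads carrying anti-CD3/CD28, with 10 U/ml interleukin-2, the media group in plain medium (called vehicle in the sample titles) and the lactate group with 40 mM sodium lactate. No group received an equal dose of another sodium salt, so lactate cannot be told apart from the added sodium and osmolarity. Nor was any group cultured without beads, so activation cannot be told apart from 72 h of culture with interleukin-2. Lactate against media asks what sodium lactate changed during activation, while media against naive and lactate against naive ask what activation changed without and with it. The last pair of comparisons share the naive libraries, and lactate against media shares its libraries with both.

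Total counts ran from 16439750 to 18601223 in the naive libraries, from 15842423 to 20922872 in media and from 14726904 to 21478137 in lactate. The lowest count of any member was 81, for Pfkm in a naive library, and the highest was 40473, for Gpi1 in a media library. Library numbers in the deposited column names fell into a low series of 8 libraries (naive 1 to 3, media 1 to 3, lactate 1 and 2) and a high series of 4 (naive 4, media 4, lactate 3 and 4). Values within each series are given beside the pooled ones where they matter, and within the high series those for activation rest on 1 naive and 1 media library.

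The purified cells were checked against marker genes. All 4 CD8 T cell markers were in the table, with Cd8a the most abundant, and they summed to 2781, 2356, 3219 and 1348 CPM in the naive libraries, 2360.1 to 2997 CPM in media and 1833 to 2298 CPM in lactate. Naive replicate 4 held the lowest sum. Among the naive libraries it held the lowest level of Slc2a3, Hk1, Gpi1 and Pfkm and the highest of Slc2a1 (54.6 CPM), Hk2 (15.6 CPM) and Pfkl (70.4 CPM). The 3 B cell markers (Cd79b the most abundant) summed to 479.7, 688, 277 and 536 CPM in the naive libraries, against 5.91 to 11.8 CPM in media and 4.41 to 6.76 CPM in lactate. The 5 myeloid markers (Csf1r the most abundant) gave 1295, 1019, 431 and 408 CPM in the naive libraries, against 12.0 to 18.9 CPM in media and 5.28 to 10.6 CPM in lactate. Markers of other cells were therefore present in the naive libraries and far lower after culture. Of the red cell and platelet markers 3 of 6 were in the table, the red cell genes Hba-a1 (leading), Hbb-bt and Alas2, so platelets were not checked. These genes gave 711, 2584, 283 and 64.2 CPM in the naive libraries and at most 1.28 CPM after culture. The 4 dendritic cell markers (Itgax leading) stood at 53.7 to 140.1 CPM in the naive libraries, 0.279 to 0.601 CPM in media and 0.314 to 2.82 CPM in lactate, with Xcr1 at 0 in both activated groups and Clec9a at 0 in lactate. The 2 NK cell markers (Klrb1c leading) stood at 3.13 to 8.00 CPM in the naive libraries and at most 0.717 CPM after culture. In edgeR all 3 B cell, 5 myeloid, 4 dendritic, 2 NK and 3 red cell markers were lower in both activated groups than in naive cells, and their part in the activation results was not tested. A smaller amount of these transcripts in bulk RNA can mean fewer cells or less RNA per cell, which cannot be told apart. The 2 CD4 T cell markers (Zbtb7b leading) gave 25.2 to 53.0 CPM in naive, 44.6 to 55.7 CPM in media and 75.3 to 89.0 CPM in lactate libraries, with Cd4 lower in both activated groups than in naive and Zbtb7b higher.

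State markers moved with activation. The 3 markers of naive T cells (Tcf7 leading) gave 2096 to 3523 CPM in naive (the highest in replicate 4), 826 to 1308 CPM in media and 554 to 764 CPM in lactate libraries, with 2 called lower in media and 3 in lactate against naive. The 4 markers of activated T cells (Gzmb leading) gave 170.0 to 584 CPM in naive, 3449 to 4524 CPM in media and 6551 to 8870.3 CPM in lactate libraries, and all 4 were called higher in both activated groups than in naive. Between lactate and media, Cd3e, Cd3g and Ccr7 were lower and Zbtb7b was higher in edgeR, and the part of these shifts in the lactate results was not tested.

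A gene was called when its edgeR p-value, adjusted over the 13767 genes by the method of Benjamini and Hochberg, was at most 0.01. In media against naive all 9 members were called higher, where 28.5% of all tested genes were called higher and 29.0% lower. The same 9 were called higher in lactate against naive, where 33.0% of genes were higher and 32.0% lower. For all 9 members the 4 activated values lay clear of the 4 naive values in both comparisons, a separation shown by 61.2% of tested genes for media and 67.8% for lactate. The median log2 fold change of the members was 2.55 for media (-0.03 over all tested genes) and 2.49 for lactate (0.01 over all tested genes). In lactate against media 0 members were called higher and 2 lower, Gpi1 and Pfkfb3, where 13.9% of genes were called higher and 11.1% lower. The count of 0 came from edgeR's quasi-likelihood test, and at an unadjusted p of at most 0.05 it became 1, Hk1, which was also called higher by DESeq2, while limma voom called 0. Groups did not overlap for 5 members (Slc2a3, Hk1, Gpi1, Pfkm and Pfkfb3), against 44.7% of tested genes. The members' median difference between lactate and media was -0.44, and over all tested genes it was -0.0016. Estimates were above 0 for 3 members under each of the 4 scalings tried and below 0 for the other 6. Summed over the 9 genes, the naive libraries held 844 to 1016 CPM, media 5724 to 6452 CPM and lactate 4063 to 5008 CPM.

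**Figure D1:**
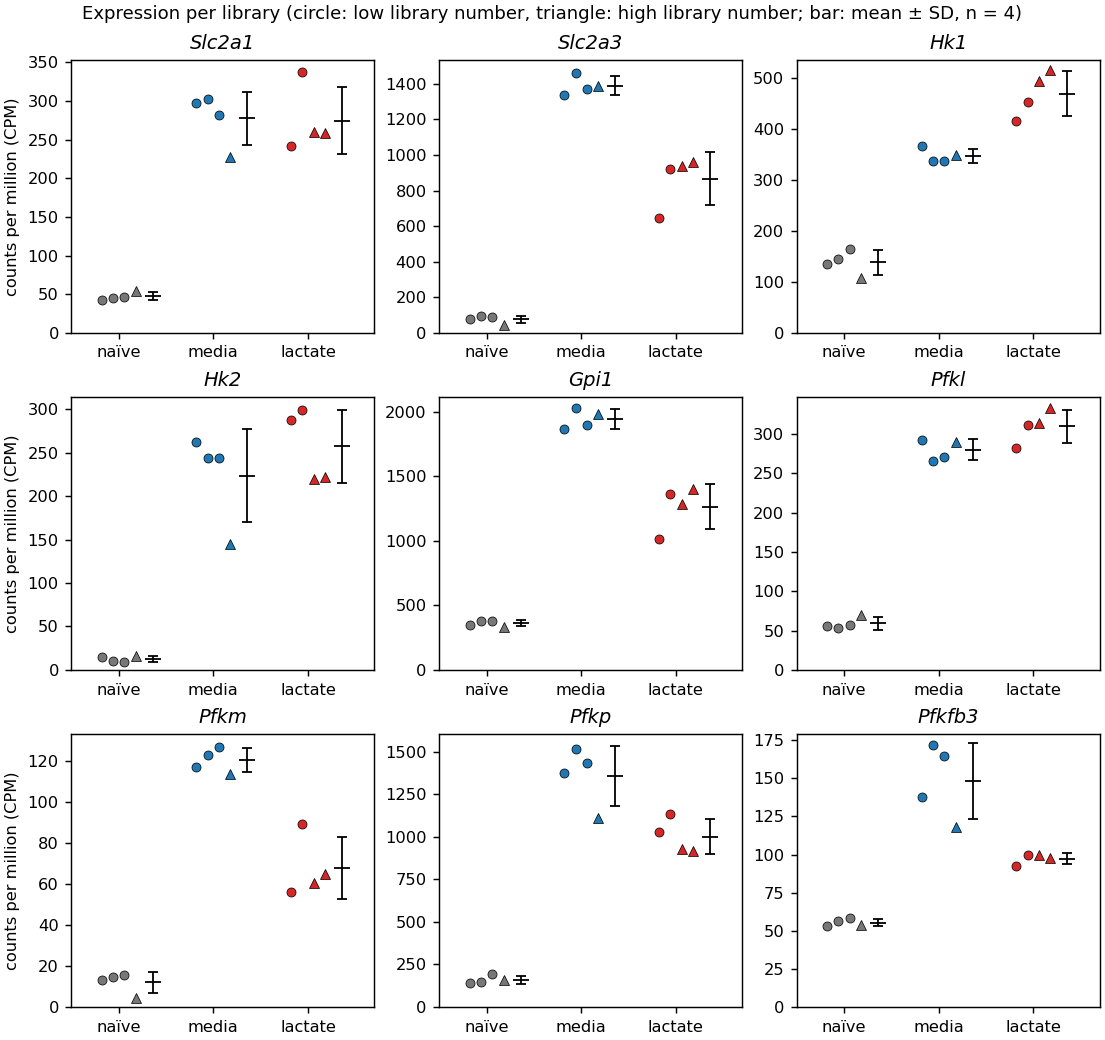
TMM-normalised CPM of each member in the 12 libraries, by group, with circles for the low number series, triangles for the high series and bars for mean ± SD (n = 4). The 4 lactate values of Gpi1 (1012 to 1399 CPM) lie below the 4 media values (1871 to 2030.4 CPM), and every activated value of every member lies above its naive values.

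Slc2a1 (ENSMUSG00000028645, GRCm38 chr4:119108711-119137983) encodes GLUT1, the widely expressed basal glucose transporter. Its level was 42.9, 45.6, 47.0 and 54.6 CPM in the naive libraries, 298, 303, 282 and 228 CPM in media and 242, 338, 259.8 and 258 CPM in lactate. The activated libraries were all far above the naive ones, and media and lactate overlapped, with media replicate 4 the lowest of the 8 activated libraries. Media exceeded naive 5.84-fold (log2 2.55, SE 0.14, adjusted p 1.37e-08 in edgeR) and lactate exceeded naive 5.78-fold. Lactate against media gave a log2 difference of -0.01 with a 95% confidence interval from -0.29 to 0.26, and was -0.04 within the low series and 0.18 within the high series.

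Slc2a3 (ENSMUSG00000003153, GRCm38 chr6:122727809-122801640) encodes GLUT3, a transporter of high glucose affinity. It stood at 78.2, 92.4, 88.6 and 46.2 CPM in the naive libraries, 1340.2, 1463, 1369 and 1388 CPM in media and 645, 922, 938 and 961 CPM in lactate. The media libraries lay close together, every lactate library lay below them, and lactate replicate 1 lay well below the other lactate libraries. The rise from naive to media was 18.2-fold (log2 4.19, SE 0.22), and from naive to lactate 11.3-fold (log2 3.50, SE 0.21). Within the low series the rise to media was 4.01 on the log2 scale and within the high series 4.90. The log2 difference of lactate from media was -0.68 (95% confidence interval -1.09 to -0.27), which missed the threshold. Its adjusted p in edgeR was 0.0129, and over 27 alternative settings it ran from 0.000652 (without naive replicate 4) to 0.0799 (with a term for each donor). Within the low and the high series the difference was -0.85 and -0.55.

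TPM (transcript abundance as counts per base of summed exon length, scaled to a fixed sum) allows levels to be compared between genes. Naive cells held 46.3 ± 6.32 TPM of Slc2a1 and 35.7 ± 8.91 TPM of Slc2a3 (mean ± SD, n = 4), media cells 275 ± 41.5 and 665 ± 31.7 TPM, and lactate cells 248 ± 43.1 and 376 ± 54.4 TPM. The TPM ratio of Slc2a1 to Slc2a3 was 1.13, 1.02, 1.10 and 2.44 in the naive libraries, 0.459, 0.428, 0.425 and 0.340 in media and 0.776, 0.758, 0.572 and 0.556 in lactate. The 3 groups were thus apart from each other, and Slc2a3 led in each activated library. Which transporter led in naive cells depended on the scaling for length, since on counts Slc2a3 made up 64.6, 67.0, 65.4 and 45.9% of the pair in the naive libraries. Length cancels from the differences between groups in the log2 ratio. The log2 ratio differed by -1.69 between media and naive, by -1.01 between lactate and naive and by 0.68 between lactate and media, each with an exact two-sided permutation p of 0.0286, the smallest that 70 arrangements of 4 against 4 allow. Ratios were tested for 4 pairs of isoenzymes in 3 comparisons, and adjusted over those 12 tests at a threshold of 0.05 these p-values became 0.0381. The permutation did not take account of the 3 donors that gave a library to both activated groups. With the replicate block by donor the difference between lactate and media was 0.77. Within the low series it was 0.81 and within the high series 0.73. Against naive, the low series gave -1.31 in media and -0.50 in lactate and the high series, with its single naive library, -2.84 and -2.11. Without naive replicate 4 these differences were -1.40 and -0.72.

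Hk1 (ENSMUSG00000037012, GRCm38 chr10:62268855-62379908) encodes hexokinase 1, the housekeeping form. It was at 135, 145, 165 and 108 CPM in the naive libraries, 366, 337, 336 and 348 CPM in media and 416, 452, 493 and 514 CPM in lactate. All lactate libraries lay above all media libraries, and these lay above all naive libraries. Over all libraries Hk1 had the smallest rise of the 9 from naive to media, 2.51-fold (log2 1.33, SE 0.12). That rise was 1.23 within the low series and 1.69 within the high series, where Pfkfb3 rose less (1.13). From naive to lactate Hk1 rose by 1.76 on the log2 scale. Lactate against media gave a log2 difference of 0.44 (95% confidence interval 0.17 to 0.70), 0.33 within the low series and 0.53 within the high series. Its adjusted p of 0.0123 in edgeR missed the threshold, and it ranged from 0.0015 to 0.124 over the 27 alternatives, passing in 6 of them, 2 of which left out naive replicate 3 (0.00665) or naive replicate 4 (0.00171).

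Hk2 (ENSMUSG00000000628, GRCm38 chr6:82725025-82774454) encodes hexokinase 2, the inducible form. Its level was 15.2, 10.7, 9.00 and 15.6 CPM in the naive libraries, 263, 243, 244 and 144 CPM in media and 288, 299.5, 219 and 223 CPM in lactate. Media replicate 4 stood far below the other media libraries, and the activated groups overlapped. Hk2 was 17.7-fold higher in media than in naive (log2 4.15, SE 0.24) and 20.4-fold higher in lactate than in naive. The rise to media was 4.45 on the log2 scale within the low series and 3.20 within the high series, and the difference between series was not tested. Lactate against media gave 0.20 on the log2 scale (95% confidence interval -0.25 to 0.66, adjusted p 0.479 in edgeR), 0.23 within the low series and 0.61 within the high series. It ran from 0.04 (without media replicate 4) to 0.29 (without media replicate 1) on leaving out 1 library. In the 3 donors that gave both libraries the lactate value was the higher, at 288 against 263, 299.5 against 244 and 223 against 144 CPM. With a term for each donor the difference was 0.35 over the 12 libraries (adjusted p 0.287 in edgeR) and 0.36 over the activated libraries alone, chosen after seeing the data (adjusted p 0.0299), and Hk2 was not called under any of the 27 alternatives (adjusted p up to 0.909).

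The balance of the hexokinases shifted with activation. In TPM, naive cells held 55.0 ± 8.45 of Hk1 and 7.25 ± 2.08 of Hk2, media cells 141 ± 7.75 and 131 ± 34.5, and lactate cells 173 ± 9.22 and 137 ± 28.0 (mean ± SD, n = 4). Hk2 supplied 12.0% of the summed hexokinase TPM of this pair in naive cells, 47.4% in media and 43.9% in lactate (8.71, 38.8 and 35.4% of counts). The share in media was 50.7, 50.8 and 51.0% in the low series and 37.2% in the high series, and in lactate it was 49.7 and 48.6% in the low series and 38.9 and 38.2% in the high series. The activated libraries thus sorted by number series more than by lactate. The log2 ratio of Hk2 to Hk1 rose by 2.80 from naive to media (exact permutation p 0.0286, adjusted 0.0381) and by 2.60 from naive to lactate, with the same exact and adjusted p. Within the low series the rises were 3.23 and 3.14, and within the high series, which had 1 naive library, 1.52 and 1.60. Lactate against media gave -0.21 (exact permutation p 0.371, adjusted 0.405), -0.09 within the low series, 0.08 within the high series and -0.04 with the replicate block by donor. On leaving out 1 library it ran from -0.41 (without media replicate 4) to -0.10 (without lactate replicate 4).

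Gpi1 (ENSMUSG00000036427, GRCm38 chr7:34201330-34230336) encodes phosphoglucose isomerase, which has no isoenzyme among the members. It was the most abundant member in TPM in all 3 groups, at 191 ± 7.83 in naive, 1045 ± 39.4 in media and 616 ± 72.8 in lactate (mean ± SD, n = 4). Its level was 348, 378, 383 and 334 CPM in the naive libraries, 1871, 2030.4, 1898 and 1984 CPM in media and 1012, 1361, 1284 and 1399 CPM in lactate. The groups formed 3 separate bands, and lactate replicate 1 was the lowest activated library. Gpi1 rose 5.39-fold from naive to media (log2 2.43, SE 0.11) and 3.50-fold from naive to lactate (log2 1.81, SE 0.11). Between lactate and media it fell by 0.62 on the log2 scale (95% confidence interval -0.85 to -0.40), with an adjusted p of 0.000663 in edgeR and all 4 lactate libraries below all 4 media libraries. The difference was -0.72 within the low series and -0.57 within the high series. Over the 27 alternatives its adjusted p stayed between 4.35e-09 and 0.00852, the highest being that of the fit with a term for each donor, so the call held in each.

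Some reads counted for Gpi1 may belong elsewhere. Of its exon bases 11.5% overlap Gm26762, a noncoding RNA gene on the opposite strand that is not in the count table, and the strand setting of the counting was not stated. Of the 50-base windows of its transcripts, matched on both strands, 15.8% also occur in transcripts of other genes. Gm26762 held 8.29%, so the shares given for that gene should not be added. The processed pseudogene Gpi-ps (chr8:5639580-5641011) held 7.94%, and it had 3.38 CPM in naive, 17.9 CPM in media and 12.1 CPM in lactate. For Pfkm 10.2% of exon bases overlap Gm26513 on the same strand and 0.539% overlap Senp1, and for Pfkp 5.58% overlap Pitrm1 on the opposite strand (66.1, 56.3 and 102 CPM in naive, media and lactate). Slc2a1 shares 2.99% with Gm12868 and Hk1 1.84% with Hk1os, both on the opposite strand, and the exons of Slc2a3, Hk2, Pfkl and Pfkfb3 overlap no other annotated gene. The share of counts that such overlaps gained or lost is unknown.

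The phosphofructokinase subunits differed in their behaviour. Pfkl (ENSMUSG00000020277, GRCm38 chr10:77986947-78010083) encodes the liver-type subunit and ranged from 53.4 to 70.4 CPM in naive, 266 to 292 CPM in media and 282 to 333 CPM in lactate libraries. It rose 4.74-fold from naive to media and 5.25-fold from naive to lactate, while lactate against media gave 0.15 on the log2 scale (95% confidence interval -0.06 to 0.36). The activated groups overlapped.

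Pfkm (ENSMUSG00000033065, GRCm38 chr15:98092589-98132451), the muscle-type subunit, stood at 13.4, 14.8, 15.6 and 4.54 CPM in the naive libraries, 117, 123, 127 and 114 CPM in media and 55.8, 89.4, 60.6 and 64.9 CPM in lactate. Naive replicate 4 lay far below the other naive libraries, and every lactate library lay below every media library. The rise from naive to media was 9.95-fold (log2 3.31, SE 0.30), 3.06 on the log2 scale within the low series and 4.62 within the high series. Over all libraries the lactate estimate against media had the largest size of the 9, -0.83, and also the widest 95% confidence interval, -1.43 to -0.23. Its adjusted p in edgeR was 0.0303, with 0.000309 (without naive replicate 4) to 0.179 (with a term for each donor) over the alternatives. Within the low and the high series the difference was -0.79 and -0.86, and in the low series that of Slc2a3 (-0.85) was larger in size.

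Pfkp (ENSMUSG00000021196, GRCm38 chr13:6579768-6648777), the platelet-type subunit, had 139, 145, 193 and 157 CPM in the naive libraries, 1373, 1514, 1431 and 1109 CPM in media and 1030.0, 1133, 925 and 915 CPM in lactate. Media replicate 4, the lowest media library, lay below lactate replicate 2, so these groups overlapped. Pfkp rose 8.56-fold from naive to media (log2 3.10, SE 0.14) and 6.32-fold from naive to lactate. Lactate against media gave -0.44 (95% confidence interval -0.72 to -0.16, adjusted p 0.0167 in edgeR). Without media replicate 4 the difference was -0.53 with an adjusted p of 0.00746, and over the alternatives the adjusted p ranged from 0.00198 to 0.106.

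Pfkp was the leading subunit in each group on the TPM scale. It made up 48.5 ± 2.93% of the summed phosphofructokinase TPM in naive cells, 56.3 ± 3.39% in media and 52.8 ± 2.98% in lactate (mean ± SD, n = 4). Pfkl held 36.7 ± 5.80%, 23.6 ± 2.74% and 33.0 ± 3.17%, and Pfkm held 14.8 ± 6.13%, 20.1 ± 0.921% and 14.2 ± 1.96%. The share of Pfkl was thus smallest in media cells, and in lactate cells it lay between the media and the naive share. On counts the shares moved to 68.8, 77.03 and 72.5% for Pfkp in naive, media and lactate, 25.9, 16.1 and 22.6% for Pfkl and 5.30, 6.87 and 4.88% for Pfkm, with the same order of groups for each subunit. The TPM ratio of Pfkp to Pfkl was 1.25, 1.35, 1.68 and 1.11 in naive, 2.34, 2.83, 2.63 and 1.90 in media and 1.82, 1.81, 1.47 and 1.37 in lactate libraries. The TPM ratio of Pfkm to Pfkl was 0.481, 0.556, 0.545 and 0.129 in naive, 0.800, 0.922, 0.937 and 0.782 in media and 0.395, 0.573, 0.386 and 0.390 in lactate libraries. Media stood above lactate without overlap in both ratios, while lactate and naive overlapped. The log2 difference between lactate and media was -0.58 for Pfkp to Pfkl and -0.998 for Pfkm to Pfkl, both with an exact permutation p of 0.0286 (adjusted 0.0381). Within the low series these were -0.52 and -0.89, and within the high series -0.42 and -1.01. With the replicate block by donor they were -0.46 and -0.91. From naive to media both ratios rose, by 0.85 and 1.21 (exact permutation p 0.0286, adjusted 0.0381 for both), and the value for Pfkm to Pfkl was 0.70 without naive replicate 4, 0.75 within the low series and 2.60 within the high series. Lactate against naive gave 0.27 (exact permutation p 0.143, adjusted 0.172) and 0.21 (exact permutation p 0.914), and the last value was -0.29 without naive replicate 4, -0.15 within the low series and 1.59 within the high series. Of the 4 ratios, 3 passed in lactate against media, 4 in media against naive and 2 in lactate against naive. The tests of lactate against media did not take account of the donors shared by these groups.

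**Figure D2:**
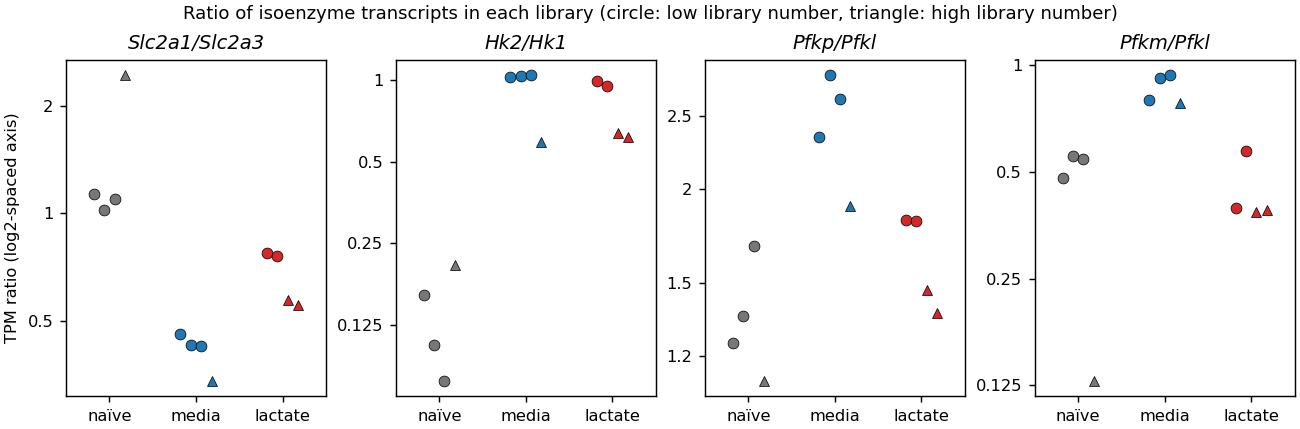
TPM ratios of isoenzyme pairs in the 12 libraries, by group, on a log2-spaced axis, with circles for the low number series and triangles for the high series. The ratio of Pfkm to Pfkl is 0.782 to 0.937 in the 4 media libraries and 0.386 to 0.573 in the 4 lactate libraries.

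Pfkfb3 (ENSMUSG00000026773, GRCm38 chr2:11471433-11554077) encodes a bifunctional enzyme whose kinase activity makes fructose-2,6-bisphosphate, the activator of phosphofructokinase. It stood at 53.0, 56.5, 58.2 and 53.7 CPM in the naive libraries, 138, 172, 165 and 118 CPM in media and 92.2, 100.04, 99.5 and 97.6 CPM in lactate. Lactate libraries were closely grouped between the naive and the media libraries, with no overlap on either side. Pfkfb3 rose 2.68-fold from naive to media (log2 1.42, SE 0.11) and 1.76-fold from naive to lactate (log2 0.81, SE 0.11). Between lactate and media it fell by 0.61 on the log2 scale (95% confidence interval -0.84 to -0.37, adjusted p 0.00112 in edgeR), with -0.71 within the low series and -0.26 within the high series. With a term for each donor over the 12 libraries the difference was -0.52 and its adjusted p, 0.0152, missed the threshold, the only one of 27 alternatives to lose the call (lowest adjusted p 5.33e-07).

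The lactate comparison depended on how donors and spread were modelled. With a term for each donor in the 12 libraries, 1 member (Gpi1, -0.62, adjusted p 0.00852 in edgeR) and 992 of all genes were called between lactate and media, against 2 and 3451 without it. When the same term was fitted to the 8 activated libraries alone, a setting chosen after seeing the data, 4 members were called, all lower: Slc2a3 (-0.71), Gpi1 (-0.61), Pfkm (-0.78) and Pfkfb3 (-0.51), among 3769 genes. Leaving out naive replicate 4, which is in neither group compared but enters the estimate of spread, gave 5 called members (Slc2a3, Hk1, Gpi1, Pfkm and Pfkfb3) among 4830 genes. The low series alone, also chosen after seeing the data, gave 3 (Slc2a3, Gpi1 and Pfkfb3) among 2056 genes in lactate against media and 9 of 9 in both activation comparisons. Whether the lactate effect differed between series was not tested.

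**Figure D3:**
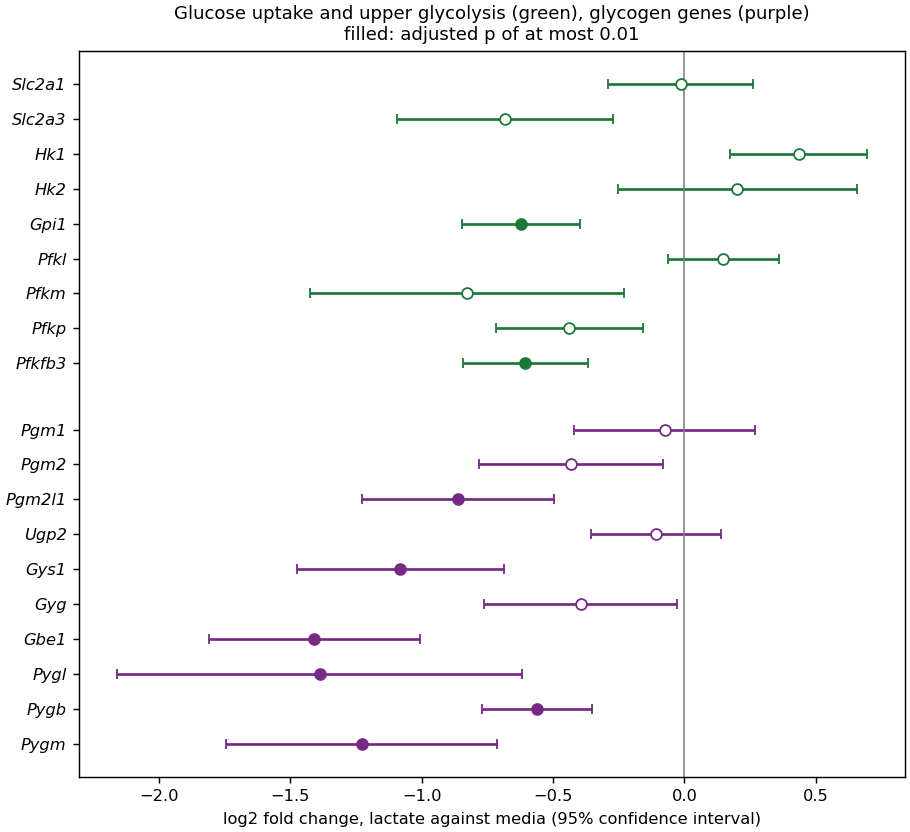
Log2 fold change of lactate against media from edgeR with 95% confidence intervals for the 9 members and for genes of glycogen metabolism, with filled points for genes called at an adjusted p of at most 0.01. Gpi1 (-0.62) and Pfkfb3 (-0.61) are the called members, and 6 of 10 glycogen genes are called, all to the left of 0.

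Genes around these steps were read from lists drawn up by pathway. Glycogen and glucose-1-phosphate metabolism, a side branch at glucose-6-phosphate, had 10 of 10 genes tested. Of these, 8 were called higher in media than in naive (median log2 1.51), 7 higher and 1 lower (Pgm2l1) in lactate than in naive (median 0.72), and 6 lower in lactate than in media (median -0.71). All 10 estimates lay below 0 in that last comparison, and 0 genes were called higher in edgeR or in any of the 27 alternatives. Gbe1, the branching enzyme, stood at 168, 216, 184 and 167 CPM in media and 45.5, 98.2, 63.0 and 70.1 CPM in lactate, after 19.0 ± 0.971 CPM in naive (mean ± SD, n = 4). No lactate library reached any media library. It fell by 1.41 on the log2 scale (SE 0.19, adjusted p 0.000165 in edgeR), with -1.49 and -1.33 within the low and the high series. Gys1, which encodes glycogen synthase, had 105, 118, 114 and 93.4 CPM in media and 42.8, 62.3, 43.4 and 55.0 CPM in lactate. Its groups were likewise apart, and it fell by 1.08 on the log2 scale (adjusted p 0.000695 in edgeR). The other called genes were the glycogen phosphorylases Pygl (-1.39), Pygb (-0.56) and Pygm (-1.23), and Pgm2l1 (-0.86). With a term for each donor over the 12 libraries only Gbe1 of this list was called. Fitted to the activated libraries alone, chosen after seeing the data, that term kept the calls of Gbe1, Gys1, Pygl, Pygb, Pygm and Pgm2l1. Over the 27 alternatives the log2 difference ran from -0.96 to -1.19 for Gys1 and from -0.72 to -0.93 for Pgm2l1. It ran from -0.51 to -0.62 for Pygb and from -1.05 to -1.46 for Pygm. The count lower ran from 1 to 8, with 8 without naive replicate 4 or with the compared groups alone. The call of Pygl was lost on leaving out any 1 of the 4 media libraries or of lactate replicates 1, 3 and 4, with an adjusted p of up to 0.0296. It was also lost with a term for the number series (0.0127), in the low series alone (0.0868) and with a term for each donor (0.0695). Its log2 difference stayed at -1.19 to -1.48 in these fits.

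Of 8 genes for other glucose-phosphorylating enzymes and for glucose-6-phosphate hydrolysis, 4 were tested. Adpgk, whose enzyme phosphorylates glucose with ADP, went from 122 CPM in naive to 29.0 CPM in media and 59.4 CPM in lactate, so that it was lower in both activated groups than in naive and higher in lactate than in media (log2 1.03, adjusted p 0.000228 in edgeR). G6pc3, a glucose-6-phosphatase, rose between media and lactate (log2 0.49) and Slc37a4, the glucose-6-phosphate transporter of the endoplasmic reticulum, fell by 0.56. The call of G6pc3 was lost in the fits lacking media replicates 2 or 3 or lactate replicates 1, 3 or 4 (adjusted p up to 0.0139), and that of Slc37a4 in those lacking media replicates 1, 2 or 4 or lactate replicates 3 or 4 (up to 0.0176). The median of the 4 genes was 0.15. Against naive, G6pc3 and Slc37a4 were called higher and Hk3 and Adpgk lower in both activated groups (median -0.74 in media and 0.02 in lactate).

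Among other genes of fructose-2,6-bisphosphate turnover and fructose bisphosphatases, 4 of 6 were tested. Tigar, which encodes a phosphatase acting on fructose-2,6-bisphosphate, stood at 18.8 CPM in naive, 10.0 CPM in media and 26.9 CPM in lactate on average. It was called lower in media than in naive and higher in lactate than in media (log2 1.42, adjusted p 0.000242 in edgeR), the only gene of the 4 called between lactate and media (median 0.07). Pfkfb2 was called lower in both activated groups than in naive, and Pfkfb4 in lactate (medians -0.65 in media and -0.27 in lactate).

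Other glucose transporters gave 3 tested genes of 12, with 0 called between lactate and media in edgeR (median -0.52). At an unadjusted p of at most 0.05 this became 1 lower (Slc2a9, named after its values were seen), DESeq2 called 1 lower and limma voom 0. Slc2a8 was called higher in both activated groups than in naive, at 6.70 CPM in naive, 16.6 CPM in media and 14.2 CPM in lactate (medians of the 3 genes 0.63 in media and -0.63 in lactate). All 9 regulators of glucose uptake and hexokinase docking were tested. Between lactate and media, Akt1, a kinase upstream of glucose uptake, was higher (158 CPM in media and 252 CPM in lactate, log2 0.67, adjusted p 0.000128 in edgeR), as was the outer mitochondrial membrane channel gene Vdac2 (231 and 307 CPM, log2 0.41). Arrdc4, an arrestin relative that lowers glucose uptake, was lower (1.77 and 0.441 CPM), a call lost in the fits lacking media replicate 2, lactate replicate 1 or lactate replicate 3 (adjusted p up to 0.0125). The median of the 9 was -0.06. Against naive, 3 were called higher and 2 lower in media (median 0.11), and 4 higher and 3 lower in lactate (median 0.28). Among the last was Txnip, whose product restrains glucose uptake, at 1583, 1144, 1519.9 and 615 CPM in naive, 186 to 583 CPM in media and 76.6 to 388 CPM in lactate libraries. It differed from naive by -2.41 on the log2 scale in lactate (adjusted p 0.00103 in edgeR), -3.77 within the low series and -0.83 within the high series, and kept its call under the 25 alternatives. Media against naive gave -1.67 and narrowly missed the threshold (adjusted p 0.0108 in edgeR). It was -2.29 within the low series and -0.08 within the high series, and it was called under 15 of 25 alternatives (adjusted p 0.000705 to 0.0346). Lactate against media was not called for Txnip (-0.74, adjusted p 0.261 in edgeR), nor under any of 27 alternatives, so its fall in lactate cells was not shown to be particular to lactate.

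The hexosamine and mannose branches leaving fructose-6-phosphate had 7 of 8 genes tested, with Mpi (log2 0.79) and Pmm1 (log2 0.51) higher and Pmm2 (log2 -0.47) lower in lactate than in media (median 0.01). Pmm1 lost its call on leaving out any 1 of media replicates 1 to 3 or lactate replicates 2 to 4 (adjusted p up to 0.0201). Against naive 4 were called higher and 1 lower in each activated group (median 0.62 in media and 1.05 in lactate). Lower glycolysis, from aldolase to lactate dehydrogenase, had 9 of 9 genes called higher in both activated groups than in naive (median 3.77 in media and 3.73 in lactate). Between lactate and media its median was -0.0008, with Ldha higher (log2 0.45) and Aldoa (log2 -0.39) and Aldoc (log2 -2.02) lower. The call of Ldha was lost in the fits lacking media replicates 2, 3 or 4 or lactate replicates 3 or 4 (adjusted p up to 0.021), and that of Aldoa in all fits lacking 1 library but those without naive replicate 3, naive replicate 4 or lactate replicate 2 (up to 0.0224). Both were also lost under upper quartile scaling. Aldoa lost its call in 15 of the 27 alternatives, among them the compared groups alone, the block by title number and the donor term on the activated libraries alone. Adpgk, Tigar, Akt1 and Gbe1 kept their calls between lactate and media in all 27 alternatives, and with a term for each donor over the 12 libraries the other pathway genes named with a call in that comparison lost theirs. In the low series alone G6pc3, Slc37a4, Arrdc4, Vdac2, Pygl, Pygm, Pmm1, Pmm2, Aldoa and Ldha lost theirs. G6pc3 also lost its call with the block by title number, and Slc37a4 and Pmm2 with the donor term on the activated libraries alone. For the marker genes these alternatives were not run. The lower-glycolysis median in media against naive was above the 2.55 of the members, a difference that was not tested.

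For each member, the 2 tested genes with the closest profile were found by the root mean square difference of log2 CPM over the 12 libraries, each gene centred on its own mean, among 10304 genes averaging at least 5 CPM. For Gpi1 these were Gpi-ps (0.08), which shares its sequence, and Afg3l2 (0.12). For Pfkl they were Prelid1 (0.08) and Prim1 (0.13), for Hk1 Xpnpep1 (0.10) and Cdk4 (0.11), and for Pfkfb3 Smc5 (0.10) and Stambp (0.15). For Slc2a1 they were Ccdc58 (0.15) and Lonp1 (0.18), for Slc2a3 Rad54b (0.17) and Tube1 (0.24), for Pfkp Brip1 (0.20) and Lss (0.20), and for Pfkm Arhgef39 (0.21) and Osbpl3 (0.23). Hk2 had no profile as near, with Gm42047 at 0.35 and Gins2 at 0.38. No other member was eligible as a neighbour.

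Since all 9 members rose together with activation, the promoters were searched for the E-box CACGTG and for ACGTG and GCGTG, the letters of hypoxia response elements, on both strands. ACGTG lies within CACGTG and both can be met at 1 place. RefSeq promoter sequences (GRCm38.p6, 250 bases before a gene start) matched 8 of 9 members, all but Slc2a3, with 13 windows, of which 10 held at least 1 of the 3 motifs. Over all 32851 windows of 250 bases, 6.02% held CACGTG, 16.6% ACGTG, 28.2% GCGTG and 38.6% any of them. The 13 windows are not independent. Hk1, Pfkm and Pfkfb3 had more than 1 window each, and those of Pfkm at chr15:98108221-98108470 and chr15:98108306-98108555 overlap and share a GCGTG. All these counts include motifs inside exons, and the members were not tested against the shares of all windows. The windows of Gpi1 and Pfkfb3 are shown because these were the members called lower with lactate, that of Hk2 because it rose more than Hk1, and that of Pfkp because it is the leading phosphofructokinase in TPM. Capitals mark the motifs, printed as CACGT where ACGTG is on the other strand, and bases inside exons of protein-coding genes are left out. Hk2 (chr6:82774455-82774704, minus strand) held ACGTG at 2 places, Gpi1 (chr7:34230337-34230586, minus strand) held none, Pfkp (chr13:6648778-6649021, minus strand) held GCGTG at 3 places, and Pfkfb3 at an inner start (chr2:11502102-11502340, minus strand) held CACGTG and GCGTG at 1 place each. This Pfkfb3 window is shown for its motifs, and the other (chr2:11553930-11554179) held ACGTG at 1 place inside an exon and none in the 102 bases outside exons of protein-coding genes. A match is a description of the letters only.
Hk2: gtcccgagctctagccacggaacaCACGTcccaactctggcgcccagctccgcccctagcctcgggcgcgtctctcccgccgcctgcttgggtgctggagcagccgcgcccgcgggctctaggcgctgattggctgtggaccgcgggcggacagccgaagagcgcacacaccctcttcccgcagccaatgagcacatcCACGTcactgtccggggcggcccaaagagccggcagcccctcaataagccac
Gpi1: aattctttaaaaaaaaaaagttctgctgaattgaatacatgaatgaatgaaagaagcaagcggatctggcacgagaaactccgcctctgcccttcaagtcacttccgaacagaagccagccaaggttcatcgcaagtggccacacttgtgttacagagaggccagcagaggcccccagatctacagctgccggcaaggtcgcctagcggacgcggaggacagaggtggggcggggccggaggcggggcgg
Pfkp: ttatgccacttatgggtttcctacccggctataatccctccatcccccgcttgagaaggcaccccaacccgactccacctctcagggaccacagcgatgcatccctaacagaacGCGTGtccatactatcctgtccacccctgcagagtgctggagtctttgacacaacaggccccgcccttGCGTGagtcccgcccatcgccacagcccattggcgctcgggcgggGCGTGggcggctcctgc
Pfkfb3: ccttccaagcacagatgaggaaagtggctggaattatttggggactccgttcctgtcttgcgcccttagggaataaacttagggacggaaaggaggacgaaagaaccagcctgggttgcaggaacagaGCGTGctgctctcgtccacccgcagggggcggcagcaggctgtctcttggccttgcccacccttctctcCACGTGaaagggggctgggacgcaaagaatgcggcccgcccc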

How the data were processed

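The authors deposited raw counts per gene, made with bcl2fastq 2.20.0.422, STAR 2.7.5b on GRCm38, removal of PCR duplicates and featureCounts on exons of Ensembl 99, from uniquely mapped reads. The deposited length column holds gene lengths in bases, another unit, used for TPM only. Counts of 12 libraries, grouped by the labels as naive, media and lactate (4 each), were fitted in edgeR 4.0.16 (R 4.3.3) with TMM and the quasi-likelihood test. Genes with at least 1 CPM in at least 3 libraries were kept, which dropped 13, and p-values were adjusted over 13767 genes with a threshold of 0.01. Standard errors are the size of the log2 fold change over the square root of F. The model was tested on simulated data. Isoenzyme ratios of TPM were compared by exact two-sided permutation over 70 arrangements (smallest p 0.0286) without regard to donor, adjusted over 12 tests at 0.05. Similar profiles used log2 CPM with a prior count of 2.

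The alternatives changed the test (DESeq2 1.42.0, limma 3.58.1 with voom, edgeR's likelihood ratio test), the scaling (3 others), the filter, the threshold (0.05) or the libraries (the 2 compared groups alone, each library left out), or added a replicate block (donor or title number) or the number series to the model. Donors were read from the tags in the sample descriptions within each number series. As a check, each library's deviations from its group mean were correlated between media and lactate: pairs by donor gave 0.374, 0.211 and 0.553, and pairs by title number gave 0.374, 0.297, 0.0038 and 0.553. Media 4 with lactate 3, of different donors in the high series, gave 0.372. The donor block on the activated libraries alone, the low series alone and the list genes under these settings (Txnip included) were chosen after seeing the data.

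Named were all 9 members, some of the list genes that passed the threshold in any comparison and held at least 5 CPM in a group, which the rule allowed but did not require to be named, and for each member the 2 genes with the nearest profile. The lists covered other glucose transporters, other glucose-phosphorylating enzymes with glucose-6-phosphate hydrolysis, fructose-2,6-bisphosphate enzymes, regulators of glucose uptake, glycogen, hexosamine and mannose branches, lower glycolysis, and markers of CD8, naive, activated and CD4 T cells, B cells, myeloid cells, dendritic cells, NK cells, and red cells with platelets. Members and lists were chosen with earlier results of these data known, and 4 list genes were later left out for a reason unrelated to their values. Gene positions, exon overlaps and shared windows of 50 bases came from GENCODE M21 on GRCm38, promoters from RefSeq. Figures used Python 3.11.15 and matplotlib 3.10.9.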

Additional observations from a re-analysis of the deposited data

Results flagged for a closer look

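Within each group of 4 libraries, the highest or lowest value was marked when its gap to the nearest of the others was large for the group's range (Dixon's test at its 95% critical value). Among 39 groups of values tested, 5 held such a library, and chance alone marks about 1 in 20 groups. The groups are not independent, since the ratios reuse values of the members. Slc2a3 stood at 645 CPM in lactate replicate 1, against 922 to 961 CPM in the other lactate libraries. Hk2 stood at 144 CPM in media replicate 4, against 243 to 263 CPM in the other media libraries. The same library held a TPM ratio of Hk2 to Hk1 of 0.593, against 1.03 to 1.04 in the others. The TPM ratio of Slc2a1 to Slc2a3 was 2.44 in naive replicate 4, against 1.02 to 1.13 in the other naive libraries. The TPM ratio of Pfkm to Pfkl was 0.573 in lactate replicate 2, against 0.386 to 0.395 in the other lactate libraries. Ratios were marked before taking log2. The log2 ratio of Pfkm to Pfkl was -2.96 in naive replicate 4, against -1.05 to -0.847 in the other naive libraries, and was not tested on that scale. Why these libraries stood apart was not tested.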

How the results depend on the processing

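All 9 members kept their direction and call in both activation comparisons under 25 alternatives each, and Gpi1 kept its call between lactate and media under 27. No scaling moved the median of all genes by over 0.1 (log2), but the balance of calls over all genes turned. Lactate against media had 1917 genes higher and 1534 lower as reported, and 1702 and 1728 on total counts. Lactate against naive had 4545 higher and 4399 lower as reported, and 4197 and 4780 with the size factors of DESeq2. Media against naive had more lower than higher calls under each scaling. The number of members called between lactate and media, 2 as reported, became 4 with edgeR's likelihood ratio test, 6 with DESeq2, 4 with limma voom, 5 with the 2 compared groups alone and 6 at an adjusted p of at most 0.05. In the same order, these settings called 4245, 4551, 3485, 4590 and 5461 of all genes, against 3451 as reported. With the replicate block by donor it was 1, with that block on the activated libraries alone (chosen after seeing the data) 4, and with the replicate block by title number 2. Leaving out 1 library gave 2 to 5, the 5 without naive replicate 4. Over all genes, 3451 calls as reported became 992 with the replicate block by donor, 3256 with the block by title number, 2056 in the low series alone (chosen after seeing the data, fewer samples) and 5461 at 0.05, and leaving out 1 library gave 2260 (without media replicate 2) to 4830 (without naive replicate 4). Slc2a1, -0.01 between lactate and media and not called, turned to 0.0498 with the block by donor, 0.0623 with that block on the activated libraries alone and 0.0086 with a term for the number series, and ran from -0.13 to 0.0409 on leaving out 1 library. Within the high series, with 1 naive library, the log2 TPM ratios against naive moved to -2.84 (media) and -2.11 (lactate) for Slc2a1 to Slc2a3, 1.52 and 1.60 for Hk2 to Hk1, and 2.60 and 1.59 for Pfkm to Pfkl. On counts in place of TPM, 19 of 21 isoenzyme shares moved by more than the spread between replicates (Slc2a1 in naive cells from 56.7 to 39.3%), all but Hk1 and Hk2 in naive cells. Shares on TPM and on counts differ only by the scaling for length. Apart from this, fewer samples and the wider threshold, the cause was not tested. For the members and the pathway genes called between lactate and media, 1205 fold changes were recomputed. Of these, 1097 kept direction and side of the threshold, 75 lost it, 25 gained it and 8 changed sign. The recomputed values of Txnip, given above, are not among them. Of 148 recomputed log2 ratios, which were not tested again, 3 changed sign: Hk2 to Hk1 between lactate and media within the high series (0.08), and Pfkm to Pfkl in lactate against naive within the low series (-0.15) and without naive replicate 4 (-0.29).

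With 4 libraries a group, the exact permutation test could not go below 0.0286, and within the high series single libraries gave differences with no test. The lowest member count was 81, so depth did not keep any member from being tested. Sodium lactate had no salt control, and activation had no group cultured without beads. Donor pairing covered 3 of 5 activated donors. The strand setting of the counting was not stated, which leaves counts of members with overlapping genes uncertain. Markers of other cells were high in naive libraries and their part in the activation results was not tested.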
